A study of Mus musculus with 4 samples.

Results

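The genes described here are the 3 that encode the CD4 and CD8 coreceptors (Cd4, Cd8a and Cd8b1) and 5 that encode regulators of the choice between the CD4 and CD8 T cell lineages (Zbtb7b, Runx1, Runx3, Gata3 and Tox). They were taken from a fixed list of names, which was drawn up with earlier results of these data known. All 8 were among the 15093 genes counted. The levels come from 2190 of 5794 peripheral blood mononuclear cells of female wild-type C57BL/6 mice aged 3.2 ± 0.3 months, namely the cells that the authors annotated as CD4+ T cells (1517), CD8+ T cells (600) or NK cells (73). The 2 treated mice, Maus3_2 and Maus6, were exposed at the left ear to NTP (non-thermal plasma, a partially ionized argon gas) for 10 min under anaesthesia, and the 2 untreated ones (Maus2_2, Maus4_2) were anaesthetized only. Blood was drawn 120 min after irradiation in the treated mice and 120 min after the onset of anaesthesia in the untreated ones, so that the time under anaesthesia may differ between the groups, and single-cell 3′ libraries were counted in UMIs (unique molecular identifiers), so that a count stands for a captured RNA molecule.

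CD4 and CD8 are surface proteins that bind MHC class II and MHC class I molecules, and mature T cells normally keep only one of them. CD8 on circulating T cells is mostly a dimer of an alpha chain, encoded by Cd8a, and a beta chain, encoded by Cd8b1. In mouse thymocytes the choice is set by transcription factors that oppose each other: Zbtb7b encodes ThPOK, which holds cells in the CD4 lineage, and Runx3 silences Cd4 and favours the cytotoxic programme. Runx1 belongs to the same runt-domain family and keeps Cd4 off in precursors that lack both coreceptors. Gata3 acts upstream of Zbtb7b in the CD4 lineage, and Tox, an HMG-box protein, is needed for CD4 T cells to form.

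On GRCm38, Cd8b1 (ENSMUSG00000053044, chr6:71322788-71337494) and Cd8a (ENSMUSG00000053977, chr6:71373427-71379173) lie on the plus strand with 35932 bases between them, and Cd4 (ENSMUSG00000023274) lies on the minus strand at chr6:124864692-124888221. Zbtb7b (ENSMUSG00000028042, chr3:89377644-89394776), Runx1 (ENSMUSG00000022952, chr16:92601466-92826149), Gata3 (ENSMUSG00000015619, chr2:9857078-9890034) and Tox (ENSMUSG00000041272, chr4:6686353-6991557) are on the minus strand, and Runx3 (ENSMUSG00000070691, chr4:135120652-135177990) is on the plus strand. Tox and Runx1 are the longest of the 8, spanning 305205 and 224684 bases. Zbtb7b shares its locus with the antisense gene Gm15417, for which 144 UMIs were counted over all cells. No source used here gives the strand use of the counting, so reads of these 2 genes may not be told apart.

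RefSeq promoters (GRCm38.p6, 250 bases before to 50 after a transcript start) were at hand for 5 of the 8 genes, with 8 promoters in all. Each was searched on both strands for ACCACA, the core of the site bound by RUNX proteins, whose reverse complement reads TGTGGT. This 6-base word was present in 3 of the 8 promoters and in 16.8% of all 32851 promoters of that length. The upstream promoters of Runx1 (chr16:92826025-92826324, minus strand) and Runx3 (chr4:135120395-135120694, plus strand) each hold it 2 times, and 1.81% of all promoters hold 2 or more copies. The downstream promoter of Zbtb7b (chr3:89387622-89387921, minus strand) holds it once in reverse. These 3 are printed because they hold the word. Capitals mark it in the sequences below, which run 5′ to 3′.
Runx1 upstream promoter: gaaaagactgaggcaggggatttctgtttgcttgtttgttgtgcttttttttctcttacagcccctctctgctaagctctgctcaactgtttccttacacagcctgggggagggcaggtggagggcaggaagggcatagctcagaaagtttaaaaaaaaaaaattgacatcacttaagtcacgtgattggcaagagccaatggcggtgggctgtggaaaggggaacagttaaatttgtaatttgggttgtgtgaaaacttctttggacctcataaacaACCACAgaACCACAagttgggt
Runx3 upstream promoter: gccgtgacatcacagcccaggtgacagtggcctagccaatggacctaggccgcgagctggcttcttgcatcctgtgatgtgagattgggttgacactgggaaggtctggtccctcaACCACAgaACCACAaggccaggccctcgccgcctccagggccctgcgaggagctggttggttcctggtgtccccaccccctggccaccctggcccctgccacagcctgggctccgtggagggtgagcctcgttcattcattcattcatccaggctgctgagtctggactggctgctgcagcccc
Zbtb7b downstream promoter: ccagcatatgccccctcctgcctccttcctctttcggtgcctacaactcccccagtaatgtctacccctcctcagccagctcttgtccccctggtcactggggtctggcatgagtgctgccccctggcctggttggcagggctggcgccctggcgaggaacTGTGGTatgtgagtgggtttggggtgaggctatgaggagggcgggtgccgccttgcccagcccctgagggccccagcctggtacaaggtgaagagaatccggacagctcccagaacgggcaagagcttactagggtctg
The copies in Runx1 start at positions 279 and 287 from the 5′ end and those in Runx3 at positions 117 and 125. In both genes they stand in the same run of 18 bases, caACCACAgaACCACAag, and only 3 promoters of the table hold that run, those of Runx1, Runx2 and Runx3. A match to these letters is a description of the sequence and not a site of binding, and the levels below were not used to find it.

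The annotated T and NK cells gave 2999627 and 2942992 UMIs in the treated mice, against 2354086 and 2542131 UMIs in the untreated ones, and 8 of the 5794 cells carry a barcode that is also present in another mouse. All 5 T cell markers examined were present in each of these types, with summed levels of 2660 to 3692 CPM (UMIs of a gene per 1000000 UMIs of the same cells) per mouse, against 6.02 to 25.2 CPM in B cells and plasmablasts. The NK label was not borne out by the markers that define NK cells. Cd3d, part of the CD3 complex of T cells, had a UMI in 98.6% of the 73 cells, whereas Ncr1 and Klrb1c, which define NK cells, gave 1 UMI each and Klra8 gave 0. Gzma, a granzyme, gave 55 UMIs, all in 1 cell, and the other markers on the list were Klre1 with 26 UMIs, Eomes with 15 and Tyrobp with 7. The 7 NK markers summed to 34.1 to 465 CPM per mouse, against 4.11 to 17.1 CPM in CD8+ T cells. The list as a whole was thus higher than in CD8+ T cells in each mouse. In Maus6, however, its sum of 34.1 CPM lay below the 45.4 CPM of B cells and the 68.2 CPM of plasmablasts. It lay above both in the other mice. In the cells labelled NK, Ly6c2 made up nearly all of the summed monocyte markers, with 447 UMIs, and Lyz2 gave 1 UMI. These cells, of which 72 are in author cluster 11 with Ccl5, Ly6c2 and Klra7 as its leading genes, are called annotated NK cells below.

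Cd4 was the most restricted of the coreceptor genes. Its level in annotated CD4+ T cells was 144 and 134 CPM in the treated mice, against 139 and 145 CPM in the untreated ones, with 140.5 ± 4.9 CPM over all mice (SD, n = 4). In annotated CD8+ T cells it was 1.23 ± 0.27 CPM, with exactly 1 UMI per mouse, and in annotated NK cells 1 UMI was found in all. The levels in CD8+ T cells, annotated NK cells, B cells and plasmablasts overlapped between mice, so that only CD4+ T cells stood apart. A Cd4 UMI was found in 667 of the 1517 CD4+ T cells, 44.0% (95% Wilson interval 41.5% to 46.5%), at a median of 4429 UMIs per cell. Most of these cells, 66.1%, held a single Cd4 molecule. After each cell was thinned to 2000 UMIs the share was 25%, against 0.334% in CD8+ T cells and 0.138% in B cells, which do not make Cd4 and had a median of 3364 UMIs before thinning. The absence of a Cd4 UMI therefore does not identify a cell without Cd4 at this depth.

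Cd8a and Cd8b1 marked the CD8+ T cells and the annotated NK cells alike. Cd8b1 reached 680 and 631 CPM in CD8+ T cells of the treated mice, against 627 and 665 CPM in those of the untreated mice. In annotated NK cells it was 429 ± 103 CPM (SD, n = 4), and the mice of the 2 types did not overlap. Cd8a stood at 174 ± 8.2 CPM in CD8+ T cells and at 194 ± 33 CPM in annotated NK cells, where the mice overlapped. A Cd8b1 UMI was present in 93.2% of CD8+ T cells (90.9% to 94.9%) and a Cd8a UMI in 59.5% (55.5% to 63.4%), against 0.351% and 0.0639% of B cells. Thinned to 2000 UMIs per cell, the shares in CD8+ T cells were 69.7% for Cd8b1 and 28.6% for Cd8a, against 0.206% and 0.0688% in B cells. Annotated CD4+ T cells also carried both genes, at 35.4 ± 18.3 CPM for Cd8b1 and 5.94 ± 4.50 CPM for Cd8a, and most of this came from a single cluster described below.

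**Figure D1:**
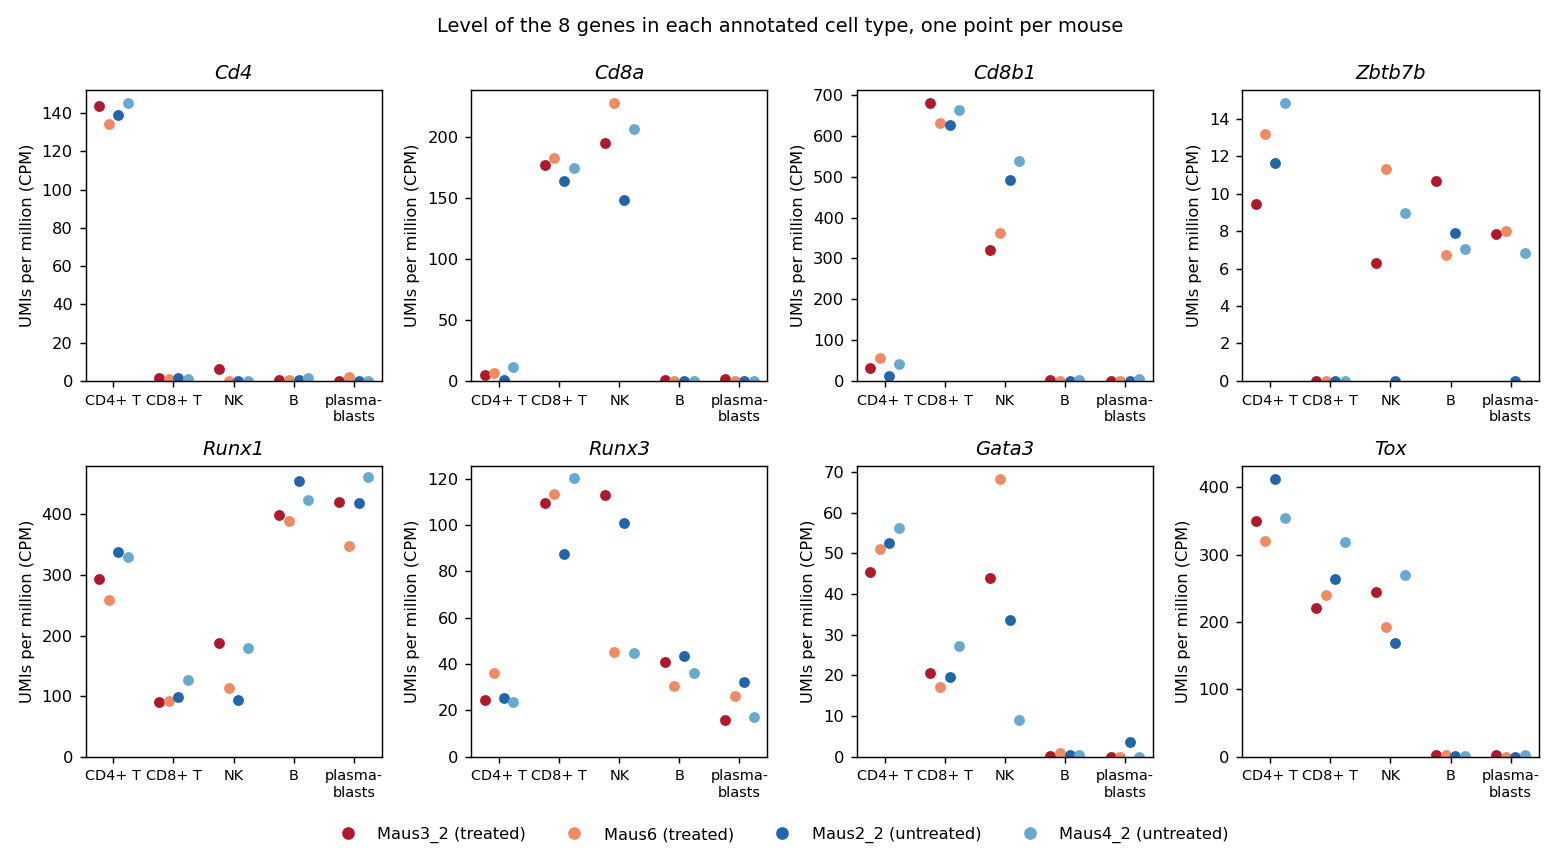
Levels of the 8 genes in CPM (y axis, a scale of its own per gene, starting at 0) by annotated cell type (x axis), with 1 point per mouse. Cd4 is high in CD4+ T cells only, Zbtb7b lies at 0 in CD8+ T cells of all 4 mice, and Runx1 is lower and Runx3 higher in CD8+ T cells than in CD4+ T cells in every mouse.

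Zbtb7b, the ThPOK gene, was rare but had a sharp boundary. CD4+ T cells held 84 UMIs in 6949762, with 9.47 and 13.2 CPM in the treated mice, against 11.7 and 14.8 CPM in the untreated ones. CD8+ T cells held 0 UMIs in 3382022, in 600 cells of 4 mice, which allows a share of cells with a UMI of up to 0.5% when 3 counts are taken as the limit of a count of 0. With the same limit of 3 UMIs over all 4 mice, the level in CD4+ T cells was at least 13.6-fold higher. The gene was not particular to T cells, since B cells had 8.11 ± 1.80 CPM and overlapped with CD4+ T cells. In annotated NK cells 3 UMIs were found in 3 cells. Gm15417 ran along with it, with 11.7 CPM in CD4+ T cells, 0.887 CPM in CD8+ T cells and 5.02 CPM in B cells.

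The 2 runt-domain genes had opposite orders across the T cells. Runx1 was at 305 ± 36 CPM in CD4+ T cells and 102 ± 16 CPM in CD8+ T cells, and Runx3 at 27.5 ± 5.8 CPM and 108 ± 14 CPM in the same cells (SD, n = 4 each). Every mouse had less Runx1 and more Runx3 in its CD8+ T cells than any mouse had in its CD4+ T cells. Runx1 was highest outside the T cells, at 417 ± 30 CPM in B cells and 412 ± 48 CPM in plasmablasts, which overlapped with each other and not with CD4+ T cells. Runx3 was also present in B cells, at 37.9 ± 5.7 CPM, where the mice overlapped with those of CD4+ T cells. Annotated NK cells resembled CD8+ T cells in this respect, with 144 ± 47 CPM of Runx1 and 76.1 ± 36.1 CPM of Runx3, and their mice overlapped with those of CD8+ T cells for both genes.

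Gata3 and Tox were found in all the T and NK types and were almost absent from B cells. Gata3 was at 51.3 ± 4.4 CPM in CD4+ T cells, 21.1 ± 4.3 CPM in CD8+ T cells and 38.7 ± 24.5 CPM in annotated NK cells, against 0.530 ± 0.274 CPM in B cells. Tox was at 359 ± 38 CPM in CD4+ T cells, 261 ± 43 CPM in CD8+ T cells and 219 ± 46 CPM in annotated NK cells, against 1.60 ± 1.18 CPM in B cells. The mice did not overlap between CD4+ and CD8+ T cells for either gene, and CD8+ T cells and annotated NK cells overlapped for both. For Tox the lowest CD4+ T cell value, 321 CPM, lay just above the highest CD8+ T cell value, 319 CPM. For Gata3 the annotated NK cells, with 19 UMIs, also overlapped with CD4+ T cells. The share of cells with a Tox UMI was nearly the same in the T cell types, 64.4% of CD4+ T cells and 61.2% of CD8+ T cells at their own depths. CD8+ T cells were deeper, however, with a median of 5555.5 UMIs per cell, and after thinning to 2000 UMIs the shares were 33.3% in CD8+ T cells and 43.1% in CD4+ T cells.

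Author clusters 3, 5, 7 and 8, annotated mainly as CD4+ T cells, differed in the regulators. Their levels over 4 mice are described without a test because the clusters were built from all genes. All cells of a cluster were counted, and those annotated as CD4+ T cells were 784 of 784, 444 of 444, 152 of 154 and 137 of 144. Runx1 was at 428 ± 64 CPM in cluster 5 and 215 ± 14 CPM in cluster 3, and Tox at 486 ± 19 CPM in cluster 5 and 270 ± 31 CPM in cluster 3, with no overlap of the mice for either gene. Cd4 itself was alike in both, at 146 ± 13 CPM in cluster 5 and 143 ± 5 CPM in cluster 3. The highest Gata3 level was in cluster 8, with 94.1 ± 18.0 CPM and a UMI in 15.0% to 40.5% of its cells per mouse, above all mice of clusters 3, 5 and 7. Cluster 8 also carried the regulatory T cell markers Foxp3, Il2ra, Ctla4 and Ikzf2 at a summed 1215 to 1884 CPM per mouse, against 32.3 to 100.3 CPM in clusters 3, 5 and 7. Its leading genes Cd74, H2-Aa and Lyz2 belong to antigen-presenting and myeloid cells, and the 5 monocyte markers there summed to 9.70 to 957 CPM per mouse. The part of such cells in the Gata3 level was not tested.

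For each pair of genes, the number of T and NK cells with a UMI of both was set against the number expected if the 2 genes were found independently of each other in the same cells. Cells annotated as T or NK with a Cd4 UMI numbered 672 and those with a Cd8a or Cd8b1 UMI 754, and 46 cells had both where 231 were expected. The ratio of observed to expected cells was 0.311 and 0.119 in the treated mice, against 0.266 and 0.138 in the untreated ones, so the 2 coreceptors kept apart in all 4. Cd4 met Cd8a more rarely than it met Cd8b1: 5 cells carried Cd4 with Cd8a (ratio 0.0382) and 45 carried Cd4 with Cd8b1 (ratio 0.201). The 2 CD8 chains met in 402 cells where 142 were expected, a ratio of 3.33 and 2.39 in the treated mice, against 3.13 and 2.77 in the untreated ones.

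**Figure D2:**
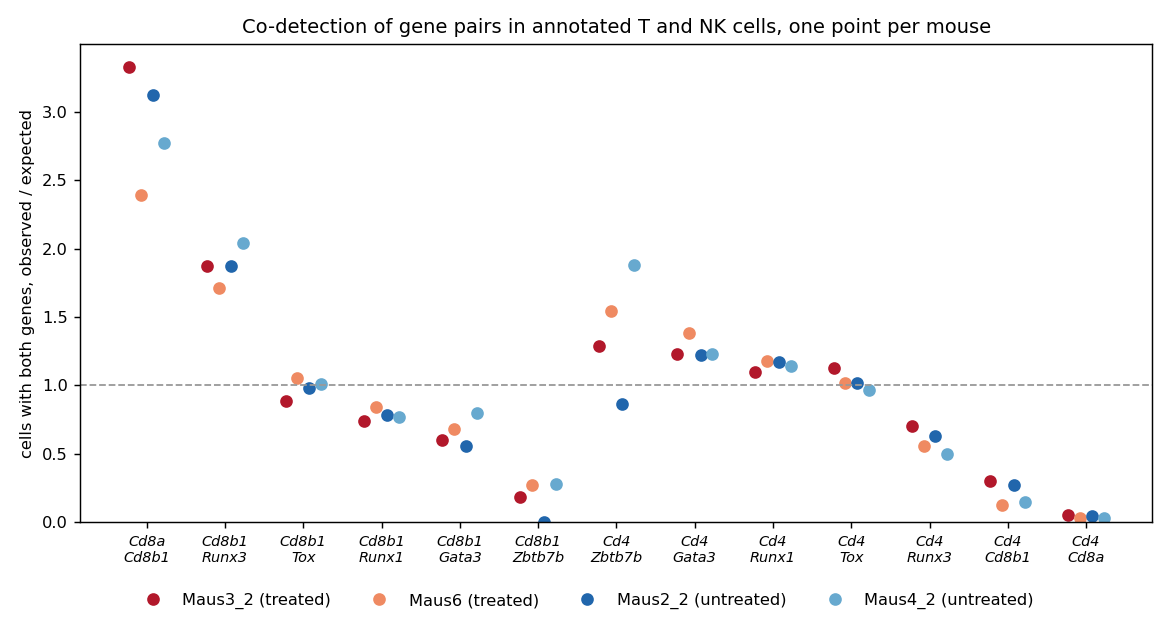
Cells with a UMI of both genes, observed over expected (y axis, from 0), for 13 gene pairs (x axis) in annotated T and NK cells, with 1 point per mouse and a dashed line at a ratio of 1. Cd4 with Cd8a and Cd4 with Cd8b1 lie well below 1, and Cd8b1 with Runx3 lies above 1 in all 4 mice, whereas Cd4 with Runx3 lies below 1.

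Runx3 went with the CD8 chains and away from Cd4. A Cd8b1 UMI and a Runx3 UMI met in 262 cells where 140 were expected, a ratio of 1.88 and 1.71 in the treated mice, against 1.87 and 2.05 in the untreated ones. Cd4 and Runx3 met in 78 cells where 129 were expected, with ratios of 0.703 and 0.556 in the treated mice, against 0.628 and 0.497 in the untreated ones. The other regulators leaned the other way: Cd8b1 was below 1 with Runx1 (0.781), Gata3 (0.657) and Zbtb7b (0.195, 5 cells), and Cd4 was above 1 with Runx1 (1.16), Gata3 (1.28) and Zbtb7b (1.40, 33 cells). Cd4 with Zbtb7b was the only one of these whose mice lay on both sides of 1, since Maus2_2 had 0.866. Tox kept close to 1 with Cd8b1 (0.980) and Cd4 (1.05). Thinned to 2000 UMIs per cell, the ratio was 0.114 for Cd4 with Cd8b1, 1.97 for Cd8b1 with Runx3 and 0.369 for Cd4 with Runx3.

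Inside a single annotated type several pairs with a regulator had ratios close to 1. Within annotated CD4+ T cells Cd4 and Runx3 had a ratio of 1.06 and Runx1 and Runx3 of 0.973. Within annotated CD8+ T cells Runx1 and Runx3 had a ratio of 0.908 and Cd8b1 and Runx3 of 1.03. This did not hold for all pairs. The 2 CD8 chains met in 19 annotated CD4+ T cells where 1.84 were expected, and none of those 19 lay outside cluster 7. In that cluster, described below, Runx3 was also unevenly spread between cells with a CD8 chain and cells with Cd4.

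Sorted by their coreceptor UMIs alone, the T and NK cells fell into 708 of the Cd8 class (a Cd8a or Cd8b1 UMI and no Cd4 UMI), 626 of the Cd4 class (a Cd4 UMI and neither CD8 chain), 46 with both and 810 with neither. Cells with neither had the lowest median depth, 4240 UMIs, against 5643.5 UMIs in the Cd8 class and 4665.5 UMIs in the Cd4 class. In cluster 4, the main CD8+ T cell cluster, 95.6% of 593 cells were of the Cd8 class and 0 of the Cd4 class, and in cluster 11 these were 75.3% and 0 of 77 cells. Of all cells of clusters 3, 5 and 8, 2.68%, 2.70% and 3.47% were of the Cd8 class and 39.5%, 47.7% and 38.9% of the Cd4 class. Cluster 8 is counted here with all of its 144 cells, of which 138 were annotated as T or NK cells. B cells, which make neither coreceptor, had 0.383% in the Cd8 class and 0.128% in the Cd4 class.

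Cluster 7 was the exception among the clusters annotated as CD4+ T cells. Of its 154 cells, 45 were of the Cd8 class, 48 of the Cd4 class, 4 had both and 57 had neither. It held 8.72 ± 6.71 CPM of Zbtb7b, 37.7 ± 23.0 CPM of Runx3, 225 ± 87 CPM of Cd8b1 and 110 ± 44 CPM of Cd4 (SD, n = 4 mice). Runx3 was unevenly spread between its 2 classes of cells. It had a UMI in 13 of the 45 Cd8 class cells (28.9%, Wilson interval 17.7% to 43.4%) and in 2 of the 48 Cd4 class cells (4.17%, 1.15% to 14.0%). Runx1 stood at 104 CPM in the Cd8 class cells and 281 CPM in the Cd4 class cells, and Zbtb7b at 0 and 2 UMIs. The shares of cells with a UMI of the other regulators had overlapping intervals, with 19 Cd8 class cells and 24 Cd4 class cells for Runx1, 4 and 6 for Gata3 and 31 and 30 for Tox. All these intervals are of cells pooled over the 4 mice and do not cover the spread between mice. Of the 21 Runx3 UMIs in the Cd8 class cells, 14 came from Maus6, which also held 22 of the 45 cells. Runx3 was at 45.3 and 121 CPM in Cd8 class cells of the treated mice and 48.3 and 67.4 CPM in those of the untreated mice. In Cd4 class cells of the same mice it was at 0, 0, 26.6 and 15.8 CPM. The Cd8 class values of Maus3_2, Maus2_2 and Maus4_2 rest on only 2, 1 and 4 UMIs.

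The few CD8 chain UMIs in clusters 3, 5 and 8 had another make-up. In cluster 4 there were 0.270 Cd8a UMIs for each Cd8b1 UMI, with 0.260 and 0.289 in the treated mice, against 0.260 and 0.262 in the untreated ones. Clusters 3, 5 and 8 held 83 Cd8b1 UMIs and 5 Cd8a UMIs, where the ratio of cluster 4 would give 22.4, and 0 of their 72 cells with a Cd8b1 UMI also had a Cd8a UMI. In cluster 4, 338 of 554 such cells had one, and in cluster 7, 20 of 47. The Cd8 class cells of clusters 3, 5 and 8 had a Runx3 UMI in 1 of 38 cells (2.63%, 0.466% to 13.5%) and Runx1 at 331 CPM. In cluster 11 the ratio was higher than in cluster 4, at 0.456, with 0.608 and 0.575 in the treated mice, against 0.333 and 0.383 in the untreated ones. These intervals cover counting error only.

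**Figure D3:**
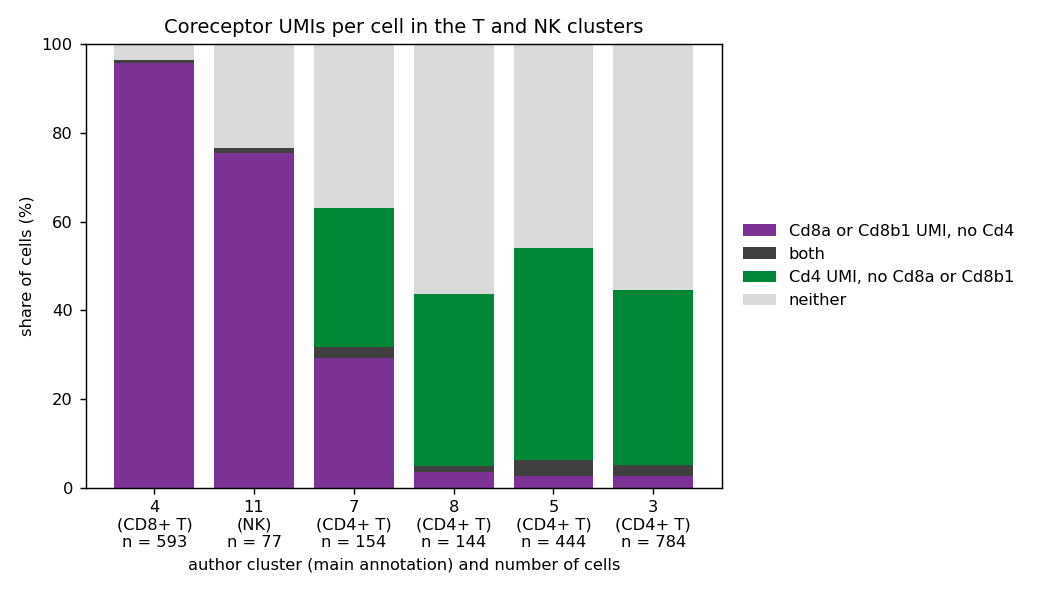
Share of cells (y axis, %) with a CD8 chain UMI only, both, a Cd4 UMI only or neither, in each author cluster of T and NK cells (x axis, with the number of cells), all mice together. All cells of a cluster are counted, whatever their annotation. Cluster 4 is 95.6% Cd8 class, clusters 3, 5 and 8 are 2.68% to 3.47% Cd8 class, and cluster 7 is split into 29.2% Cd8 class and 31.2% Cd4 class.

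Because the annotated types and clusters were built from all genes, the regulators were tested between the 2 coreceptor classes, which use the UMIs of Cd4, Cd8a and Cd8b1 only. UMIs were summed per mouse and class, and the Cd8 class was set over the Cd4 class with the mouse as a block in edgeR's quasi-likelihood test. The values that follow are CPM after TMM scaling, a correction for differences in library make-up. Of 6913 genes tested, 999 passed an adjusted p of 0.05 (14.5%), 566 higher in the Cd8 class (8.19%) and 433 lower (6.26%). DESeq2 called 434 of the genes and a fit with each cell thinned to 2000 UMIs called 384, so this background depends on the processing. All 4 regulators that entered the test passed it.

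Runx3 was higher in the Cd8 class. Its level was 112 and 119 CPM in Cd8 class cells of the treated mice and 93.9 and 113 CPM in those of the untreated mice, against 28.1, 32.9, 18.2 and 19.2 CPM in Cd4 class cells of the same mice. No mouse overlapped with any other across the classes. The log2 fold change was 2.13 (SE 0.17, adjusted p = 4.87e-18), or 4.37-fold, and it lay between 3.63-fold and 5.88-fold in the single mice.

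Runx1 was lower in the Cd8 class. It was at 124 and 116 CPM in Cd8 class cells of the treated mice and 109 and 127 CPM in those of the untreated mice, against 289, 263, 343 and 322 CPM in Cd4 class cells of the same mice. The classes did not overlap, and the log2 fold change was -1.34 (SE 0.10, adjusted p = 2.63e-20). The 2 runt-domain genes therefore differed between the classes in opposite directions in each of the 4 mice.

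Gata3 was lower in the Cd8 class, with 25.3 and 24.5 CPM in Cd8 class cells of the treated mice and 17.4 and 26.5 CPM in those of the untreated mice, against 47.2, 64.4, 51.8 and 60.9 CPM in Cd4 class cells of the same mice (log2 fold change -1.25, SE 0.20, adjusted p = 4.04e-07). No Cd8 class value reached a Cd4 class value. Tox differed least, with 234 and 278 CPM in the Cd8 class of the treated mice and 255 and 322 CPM in that of the untreated mice, against 360, 340, 424 and 351 CPM in the Cd4 class (log2 fold change -0.43, SE 0.08, adjusted p = 2.17e-05). Its highest Cd8 class mouse, 322 CPM in Maus4_2, lay just below its lowest Cd4 class mouse, 340 CPM. Of the 316 Tox UMIs in Cd8 class cells of Maus4_2, 49 came from 13 cells of clusters 3, 5 and 8. Within single mice Tox was 0.601 to 0.917 times the Cd4 class level.

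Zbtb7b had too few UMIs to pass the filter on low counts. Cd8 class cells held 0 and 1 UMI in the treated mice and 0 and 1 UMI in the untreated mice, against 8, 8, 5 and 11 UMIs in Cd4 class cells of the same mice. The ratio of the summed levels, Cd8 class over Cd4 class, was 0.0459 with an exact 95% counting interval of 0.00533 to 0.180. Both Zbtb7b UMIs of the Cd8 class came from cluster 11.

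B cell transcripts, of which free RNA is a possible source that was not tested, were found in like shares of both classes. The classes differed in depth, with medians of 5643.5 UMIs in the Cd8 class and 4665.5 UMIs in the Cd4 class. Ighm, an antibody heavy chain gene, had a UMI in 43.1% of Cd8 class cells and 41.5% of Cd4 class cells, Cd79a in 2.12% and 2.88%, and Cd3d in 96.2% and 90.6%. The 4 regulators passed the test in each alternative that gave a value, with log2 fold changes of 2.02 to 2.86 for Runx3, -1.44 to -1.25 for Runx1, -1.36 to -1.16 for Gata3 and -0.54 to -0.33 for Tox.

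**Figure D4:**
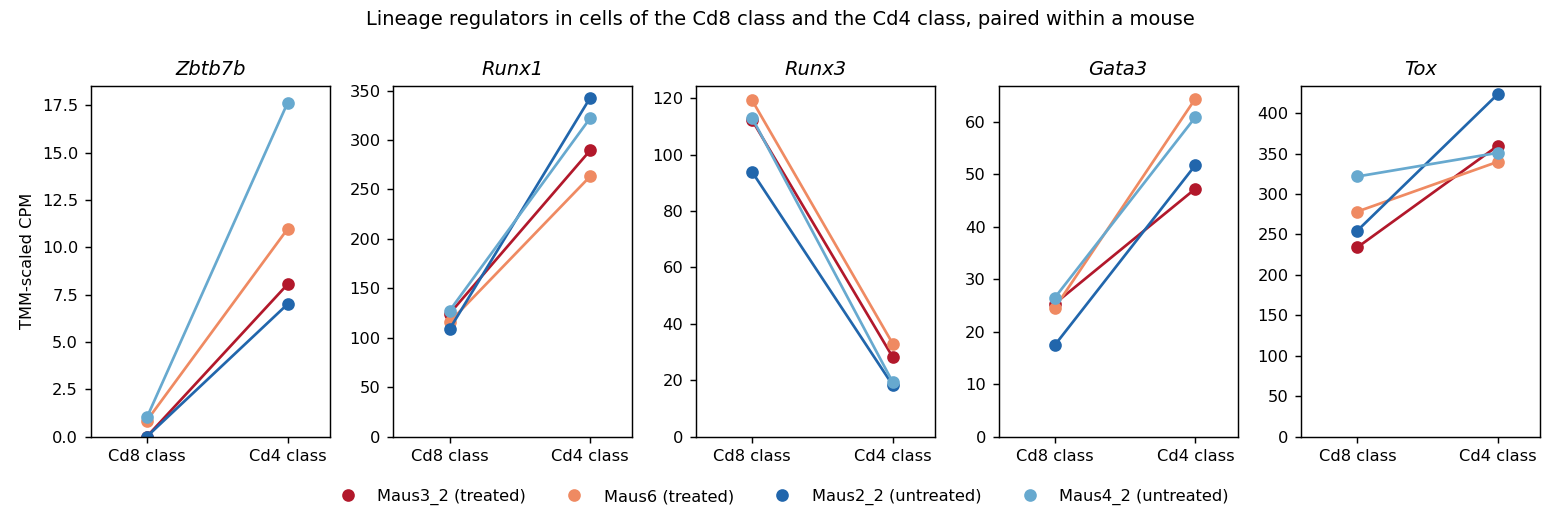
Levels of the 5 regulators (y axis, TMM-scaled CPM, from 0) in Cd8 class and Cd4 class cells (x axis), with a line joining the classes of each mouse. Runx3 is higher in the Cd8 class in all 4 mice, and Runx1, Gata3, Tox and Zbtb7b are lower in it in all 4.

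Genes that work with these regulators passed the test in both directions. Of 24 genes listed as lineage partners (cofactors, other T cell transcription factors and signalling genes), 23 were tested, 3 were higher in the Cd8 class (Myb, Id2 and Runx2), 6 were lower (Lef1, Ets1, Tcf7, Stat5b, Bcl11b and Satb1) and the median log2 fold change was 0.02, against 0.00 over all genes. Satb1, a chromatin organizer of T cells, averaged 864 ± 66 CPM in the Cd8 class and 1318 ± 81 CPM in the Cd4 class (SD, n = 4 each, log2 fold change -0.61, SE 0.05, adjusted p = 3.51e-19). Bcl11b, a T cell identity factor, had a log2 fold change of -0.62 (SE 0.08, adjusted p = 6.56e-10), Ets1 of -0.51 (SE 0.06, adjusted p = 1.57e-11) and Stat5b of -0.57 (SE 0.08, adjusted p = 6.49e-08). Each of these 4 was lower in the Cd8 class in every mouse, with no overlap.

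Of the helper genes that passed, all were lower in the Cd8 class, and of the cytotoxic genes that passed, all were higher. Among 14 helper genes, 8 passed the filter on low counts and were tested, 5 were lower (Ctla4, Il6ra, Maf, Trib2 and Cd40lg) and 0 were higher, where 6.26% of all genes were lower. Cd40lg, the ligand with which helper cells signal to B cells, averaged 2.71 ± 1.17 CPM in the Cd8 class and 83.9 ± 26.7 CPM in the Cd4 class, and Maf, a transcription factor of helper cells, 4.40 ± 3.68 CPM and 39.5 ± 7.5 CPM in the same classes (adjusted p = 6.14e-25 and 4.97e-12). Among 15 cytotoxic genes, 8 passed the filter and 7 of these were higher (Cst7, Klrd1, Nkg7, Crtam, Itgae, Ccl5 and Ctsw), where 8.19% of all genes were. A gene that is nearly absent from one class can enter the test only through the other, so these counts do not describe the whole lists. These lists and that of the lineage partners were chosen with earlier results of these data known, so their counts are a description only. Nkg7, a granule protein, averaged 296 ± 18 CPM in the Cd8 class and 2.70 ± 2.34 CPM in the Cd4 class, and Klrd1, an inhibitory receptor, 274 ± 38 CPM and 23.3 ± 10.0 CPM (adjusted p = 8.18e-41 and 7.78e-34). The Cd8 class includes 58 cells of cluster 11, whose leading genes are Ccl5 and Nkg7 among others.

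None of the 8 genes passed the test for a difference by NTP treatment. In annotated CD4+ T cells 0 of 8680 genes passed an adjusted p of 0.05 by edgeR (0%) or by DESeq2, with 416 at an unadjusted p under 0.05. Adjusted p-values of the 8 genes ran from 0.903 to 0.995. With 2 mice per group these p-values rest on the spread between those mice, which the test pools in part over all genes tested.

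In CD4+ T cells Runx1 was the only one of these genes whose mice did not overlap between groups, as happened for 35.4% of all genes tested. It was at 296 and 270 CPM in the treated mice, against 335 and 327 CPM in the untreated ones (log2 fold change -0.22, SE 0.10, unadjusted p = 0.0433, adjusted p = 0.903). Runx1 and Tox are long genes, and of 344 tested genes spanning 200 kb or more 75.6% were lower in the treated mice, against 48.9% of all genes, with a median log2 fold change of -0.12 against 0.01. The part of gene length in the Runx1 value was not tested.

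The other regulators overlapped between groups in CD4+ T cells. Tox was at 355 and 334 CPM in the treated mice, against 408 and 352 CPM in the untreated ones (log2 fold change -0.14, SE 0.10). Gata3 was at 46.0 and 53.2 CPM in the treated mice, against 52.0 and 55.7 CPM in the untreated ones (-0.12, SE 0.16). Runx3 was at 24.9 and 37.7 CPM in the treated mice, against 25.0 and 23.7 CPM in the untreated ones (0.34, SE 0.25), so that Maus6 alone stood above the rest, and without Maus6 the log2 fold change was 0.036. With cells grouped by coreceptor class instead, Runx3 in Cd4 class cells was at 28.1 and 32.9 CPM in the treated mice, against 18.2 and 19.2 CPM in the untreated ones, with no overlap (log2 fold change 0.70, adjusted p = 0.987 by edgeR). These values rest on 28, 24, 13 and 12 UMIs. The share of all genes without overlap was not computed for this grouping, and it was 35.4% in annotated CD4+ T cells. Zbtb7b was at 9.59 and 13.8 CPM in the treated mice, against 11.5 and 14.7 CPM in the untreated ones (-0.19, SE 0.34).

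Cd4 was the steadiest of the 8, at 145 and 140 CPM in CD4+ T cells of the treated mice and 138 and 144 CPM in those of the untreated mice, with a log2 fold change of 0.02 (SE 0.11). Cd8b1 in the same cells was at 31.6 and 59.2 CPM in the treated mice, against 12.8 and 40.3 CPM in the untreated ones (0.74, SE 0.42, adjusted p = 0.903), and the groups overlapped. With 1 mouse left out the log2 fold change ran from 0.14 without Maus2_2 to 1.79 without Maus4_2, and it was 0.25 without Maus6 and 1.15 without Maus3_2. Its spread went with the number of cluster 7 cells, which was 32 and 53 in the treated mice, against 19 and 50 in the untreated ones. Without that cluster the log2 fold change of Cd8b1 was 0.33. Cd8a was at 5.27 and 6.58 CPM in the treated mice, against 0.641 and 11.5 CPM in the untreated ones (-0.05, SE 0.76).

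In annotated CD8+ T cells 2 of 6798 genes passed (0.0294%), Ccl5 among them, and 0 of the 6 listed genes that entered the test, with adjusted p-values of 0.675 to 0.898. Cd8a was at 184 and 196 CPM in the treated mice, against 163 and 171 CPM in the untreated ones (log2 fold change 0.19, SE 0.16), and Cd8b1 at 709 and 677 CPM in the treated mice, against 628 and 653 CPM in the untreated ones (0.11, SE 0.12). Tox was at 230 and 258 CPM in the treated mice, against 265 and 314 CPM in the untreated ones (-0.25, SE 0.14, adjusted p = 0.675). In these 3 of 6 genes the groups did not overlap, against 38.5% of all genes tested. With cells grouped by coreceptor class instead, the groups overlapped for all 3 in Cd8 class cells. Cd8a was at 202 and 195 CPM in the treated mice there, against 174 and 196 CPM in the untreated ones. Cd8b1 was at 713 and 695 CPM against 660 and 713 CPM, and Tox at 234 and 278 CPM against 255 and 322 CPM. The Cd8b1 levels in annotated CD8+ T cells also overlapped before TMM scaling. Of 296 tested genes of 200 kb or more, 78.0% were lower in the treated mice here, and the part of gene length in the Tox value was not tested. A single CD8+ T cell held 37 Tox UMIs. Before TMM scaling, Tox in the untreated mouse Maus4_2 was at 319 CPM in all CD8+ T cells and 281 CPM in those of cluster 4. The part of the cell with 37 UMIs in the Tox value was not tested either.

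Runx1, Runx3 and Gata3 overlapped between the groups in CD8+ T cells. Runx1 was at 94.3 and 99.4 CPM in the treated mice, against 98.4 and 124 CPM in the untreated ones (-0.21, SE 0.19), and Runx3 at 114 and 122 CPM in the treated mice, against 87.8 and 118 CPM in the untreated ones (0.18, SE 0.19). Gata3 was at 21.4 and 18.3 CPM in the treated mice, against 19.7 and 26.8 CPM in the untreated ones (-0.27, SE 0.37). Zbtb7b had 0 UMIs and Cd4 had 1 UMI in each mouse of both groups.

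**Figure D5:**
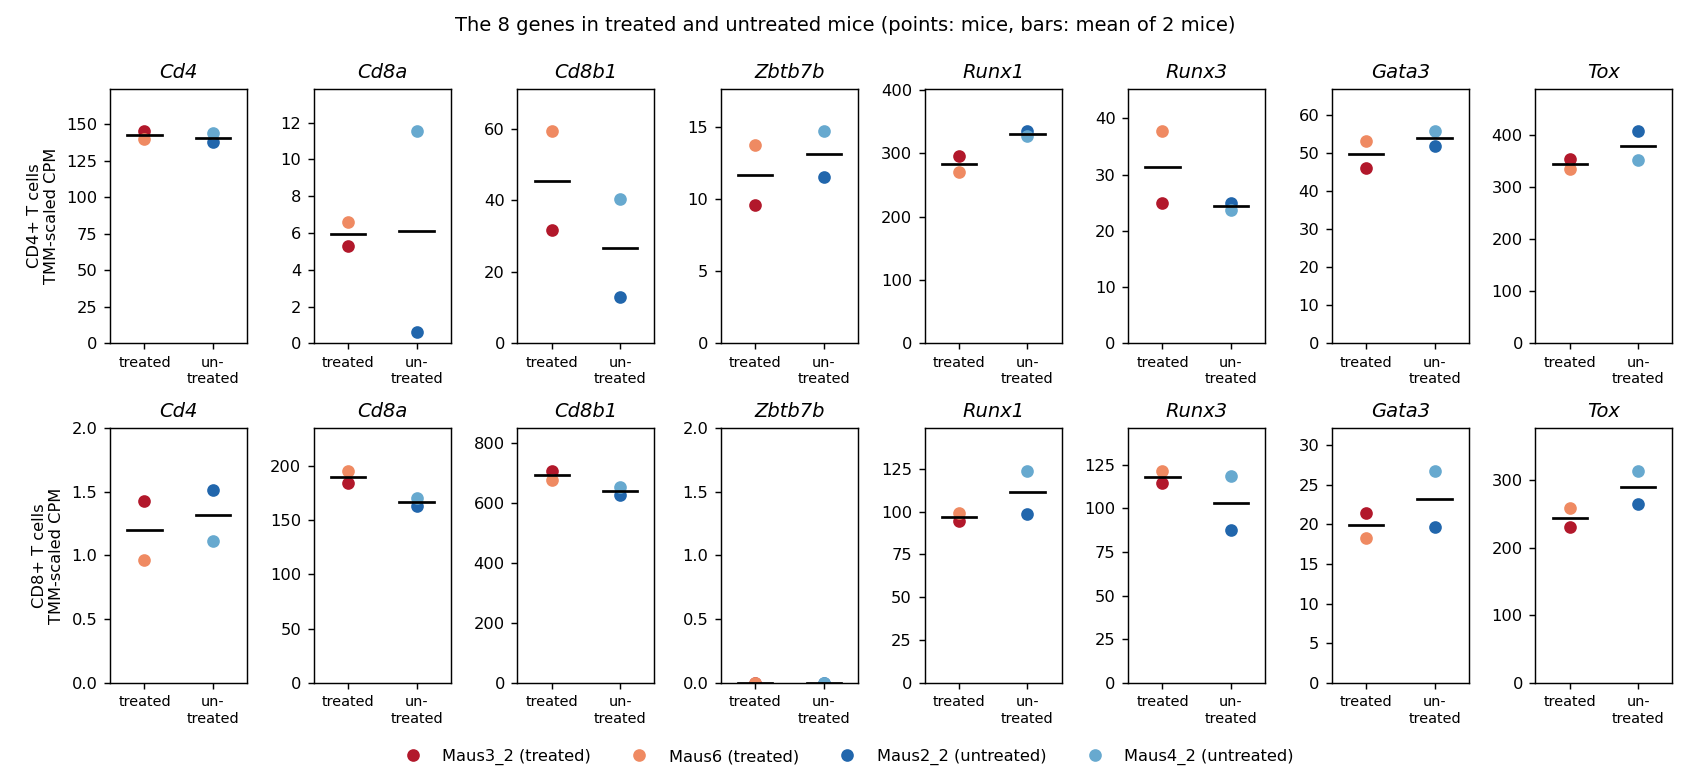
Levels of the 8 genes (y axis, TMM-scaled CPM, from 0) in CD4+ T cells (upper panels) and CD8+ T cells (lower panels) of treated and untreated mice (x axis), with 1 point per mouse and a bar at the mean of 2 mice. Treated and untreated mice lie close together in most panels, and the Cd8b1 level in CD4+ T cells spreads from 12.8 to 59.2 CPM.

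The effect of treatment was also compared between the cell types, as the CD8+ T cell effect minus the CD4+ T cell effect, with the mouse as a block. Of 8735 genes tested, 1 passed (0.0114%), Ccl5, and none of the 6 listed genes for which the difference could be estimated. The largest of these was Cd8b1 with -0.63 (SE 0.22, unadjusted p = 0.00406, adjusted p = 0.857), which ran from -1.65 without Maus4_2 to -0.051 without Maus2_2, and the other 5 lay between -0.17 and 0.24. For Cd4 and Zbtb7b, which have almost no UMIs in CD8+ T cells, no estimate was possible.

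In the related gene lists, 1 gene passed the test by treatment. In CD4+ T cells 0 of 23 lineage partners, 0 of 11 helper genes and 0 of 7 cytotoxic genes passed, and in CD8+ T cells 0 of 23, 0 of 6 and 1 of 8. The exception was Ccl5, a chemokine of cytotoxic cells, at 126 ± 35 CPM after treatment and 29.7 ± 29.1 CPM without it (SD, n = 2 each, log2 fold change 1.93, SE 0.30, adjusted p = 0.000689). This call was lost with DESeq2, with equal cell numbers and with cells grouped by coreceptor class, each of which called 0 genes, and its difference between cell types was lost with DESeq2. Among the genes with the smallest p of their list were Ikzf1, a zinc-finger factor of lymphocytes, with -0.20 in CD4+ and -0.25 in CD8+ T cells, and Tcf12, an E protein, with -0.21 and -0.29 in the same cells. Cd40lg in CD4+ T cells was at 66.8 ± 7.3 CPM after treatment and 88.1 ± 6.0 CPM without it (-0.39, adjusted p = 0.903), and Klrd1 in CD8+ T cells at 304 ± 29 CPM and 223 ± 14 CPM in the same groups (0.45, adjusted p = 0.491).

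Without thinning, the share of T and NK cells in each coreceptor class overlapped between the groups except for cells with neither coreceptor. Those were fewer in both treated mice. The Cd8 class made up 26.3% and 39.3% in the treated mice, against 28.5% and 33.2% in the untreated ones, a difference of 1.92 percentage points (exact two-sided permutation p = 1). The Cd4 class made up 33.5% and 26.0% in the treated mice, against 31.1% and 25.3% in the untreated ones (1.48 points, exact p = 0.667). Cells with both made up 3.40% and 1.32% in the treated mice, against 2.83% and 1.27% in the untreated ones (0.31 points, exact p = 0.667), and cells with neither 36.9% and 33.4% in the treated mice, against 37.5% and 40.2% in the untreated ones (-3.72 points, exact p = 0.333). Adjusted over these 4 comparisons the p-values were 0.889 to 1. Since 2 mice against 2 cannot give a p below 0.333, these tests could not have passed. Thinned to 2000 UMIs per cell, cells with neither made up 58.9% and 53.6% in the treated mice, against 60.4% and 57.2% in the untreated ones. At equal depth the groups therefore overlapped for these cells too.

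Across 43 sums per cluster and mouse, the 3 genes most like each of the 8 by Spearman correlation were named from 5585 genes. The sums share libraries and depth, so the coefficients describe the pattern only. Gata3 ran with Sh2d1a (0.897), Zap70 (0.896) and Lat (0.896), and Tox with Camk4 (0.903), Tnik (0.901) and Skap1 (0.897). Cd4 ran with Trat1 (0.878), Cd5 (0.877) and Trac (0.870). Cd8b1 ran with Fgf13 (0.834), Ctsw (0.833) and Rnf138 (0.831), and Cd8a with Nkg7 (0.743), Ctsw (0.712) and Btbd11 (0.697).

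The top coefficients of Runx3 and Zbtb7b were the lowest of the 8. Runx1 went with Pecam1 (0.862), Ash1l (0.846) and Dlg1 (0.840). Runx3 went with Slc3a2 (0.725), Ndufaf4 (0.582) and Ankrd49 (0.549), and Zbtb7b with Tspan32 (0.677), Hsbp1 (0.564) and Nek9 (0.561).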

How the data were processed

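Peripheral blood mononuclear cells of 4 mice were profiled with a 10x Genomics 3′ kit. Per the labels, the authors used Cell Ranger 7.1.0 and Seurat 4.3.0 with mm10. They deposited UMI counts per gene and cell (15093 genes, 5794 cells), and cell annotations and clusters. The deposited percent columns of the cell table were not used. The study removed ambient RNA with SoupX and doublets with DoubletFinder. No source used here states whether the deposited counts hold the SoupX correction. Cells hold 263 to 2499 genes. Counts were summed per mouse over at least 20 cells and tested with edgeR 4.0.16 (TMM, filterByExpr, quasi-likelihood, Benjamini-Hochberg, threshold 0.05) in R 4.3.3, checked on simulated data. Alternatives were DESeq2 1.42.0, no filter, each mouse left out, equal cell numbers, thinning and other groupings. Annotated NK cells, with 13 to 22 per mouse, were not tested by treatment. All 8 genes are named, and list genes by smallest p. The name of 1 gene that passed in CD8+ T cells is not reported here. The genes and lists were chosen with earlier results of these data known. Gene positions are from GENCODE vM21. Shares of cells carry 95% Wilson intervals.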

Additional observations from a re-analysis of the deposited data

How the results depend on the processing

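The genes passing between the coreceptor classes numbered 434 with DESeq2 and 384 with each cell thinned to 2000 UMIs, against 999. By treatment, CD4+ T cells gave 11 genes without the filter on low counts, and CD8+ T cells gave 11 without it and 0 with DESeq2, with equal cell numbers or with cells grouped by coreceptor class. Leaving out a mouse gave 6 to 16 genes in CD8+ T cells and 1 to 3 genes for the difference between cell types, which gave 0 with DESeq2 and 2 without the filter. With a mouse left out, the difference in share ran from -4.61 to 8.46 points for the Cd8 class, -2.27 to 5.24 for the Cd4 class and -0.73 to 1.35 for cells with both, which was -0.36 with thinning. None of the listed genes passed by treatment in any alternative, and their 51 class values kept direction and call. Directions turned in 18 of the treatment values. In CD4+ T cells Cd4 gave -0.10 in class grouping and Gata3 0.047 without clusters 7 and 8 (chosen after seeing the data), and in CD8+ T cells class grouping gave 0.0044 for Runx1 and 0.14 for Gata3. With a mouse left out, CD4+ T cells gave -0.011 to 0.051 for Cd4, -0.96 to 3.06 for Cd8a and -0.45 to 0.065 for Zbtb7b, and the difference between cell types was -2.80 to 1.12 for Cd8a, -0.13 to 0.23 for Runx1, -0.40 to 0.12 for Runx3, -0.34 to 0.10 for Gata3 and -0.32 to 0.13 for Tox. For the difference between cell types, Cd8a gave -0.53 with DESeq2. The cause was not tested. No paired analysis was possible because the replicate numbers of treated and untreated mice name different mice. Genes with few UMIs, Zbtb7b above all, are limited by depth.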

Other observations

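Runx1 also varied among the B cell clusters. It was at 572 ± 26 CPM in cluster 2, 386 ± 36 CPM in cluster 0, 259 ± 18 CPM in cluster 1 and 169 ± 50 CPM in cluster 10 (SD, n = 4 mice), and the mice of these clusters did not overlap. The mean Runx3 level, by contrast, lay between 29.3 and 41.0 CPM in the same 4 clusters. In cluster 10 its mice ran from 13.7 to 48.3 CPM, on 12 UMIs in all. Most Cd4, Zbtb7b, Runx3 and Gata3 positive CD4+ T cells held a single UMI of the gene (66.1%, 89.2%, 85.9% and 83.2% of them). Tox reached 37 UMIs in a CD8+ T cell and Cd8b1 14 UMIs.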
